A study of Homo sapiens with 6 samples.

Results

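LINC genes are long noncoding RNA genes that carry a number in place of a name, and 73 of them were expressed at a mean of at least 1 FPKM in NCI-H460 cells. They were chosen by their symbol (LINC followed by digits only) and by their mean FPKM (an expression level that corrects fragments for the length of the transcript and the size of the library) over all 6 libraries. They made up 73 of the 8887 genes that reached this mean. The same minimum set the members and the genes tested, so each of the 73 was tested. Of 1480 LINC symbols in the table, 848 were listed at 0 in every library and 559 lay above 0 but under the minimum. Some common genes, such as KRT8, EPCAM, PTPRC and MALAT1, were not listed at all. Counts of genes here therefore cover listed genes only, and a gene not listed has no known level.

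NCI-H460 is a human large cell lung carcinoma line. The cells were infected with a lentiviral CRISPR interference vector, in which a guide RNA brings a Cas9 without nuclease activity, joined to the KRAB repressor (KRAB-dSpCas9), to a promoter and silences it without cutting DNA. Cells of the group sgNTG, labelled WT, carried a nontargeting guide, and cells of the groups sg1 and sg2 carried either of 2 guides against CPT1, the carnitine palmitoyltransferase of the outer mitochondrial membrane that passes long-chain fatty acids to the carnitine shuttle. Every group, the control included, thus carried the vector and its KRAB-dSpCas9 and was kept in puromycin at 2 µg/ml from 48 h after infection. Each group had 2 libraries of bead-captured mRNA, so transcripts without a poly(A) tail can be under-sampled. Neither the cultures behind the 2 libraries of a group nor the clonality of the cells is given by the labels. P-values therefore reflect how far these 6 libraries vary, possibly for technical reasons. CPT1 genes were not analysed here, so the strength of the knockdown is unknown.

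The values per library summed to between 251704 and 260500 FPKM. Absolute depth is unknown, because the table holds no counts, and the relative depth read from short genes ran from 0.853 to 1 of the deepest library, both of these in sgNTG. The epithelial keratins KRT18 (87.4 to 102 FPKM) and KRT19 (140.5 to 179 FPKM) were high in every library, while the adhesion gene CDH1 (mean 0.0493 FPKM) and the lung lineage markers SFTPB, SCGB1A1, FOXJ1 and NKX2-1 were at or near 0 and AGER, a marker of alveolar type I cells, had 0.823 to 1.38 FPKM. The stromal proteoglycan gene LUM (44.6 to 49.7 FPKM), the monocyte gene CD14 (8.26 to 11.9 FPKM) and the endothelial receptor gene KDR (1.63 to 2.41 FPKM) were detected, while the fibroblast gene COL1A2 and the leukocyte gene LYZ were near 0.

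LINC stands for long intergenic non-protein-coding RNA, a class of transcripts made by RNA polymerase II that are mostly capped, spliced and polyadenylated like mRNA but have no long conserved reading frame. Some act in the nucleus on chromatin or on transcription of neighbouring genes, some in the cytoplasm as scaffolds or binding partners of proteins and RNAs, and for many no role is known. As a class they are made at lower levels than mRNAs and in fewer tissues.

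The start regions of 5 members are shown from RefSeq (GRCh38.p14), because they show both CG-poor and CG-rich starts of members described in the results. Each runs 5′ to 3′ on the transcribed strand, from 250 bases before the annotated start to 50 after it, and capitals mark CG dinucleotides. LINC02539 (chr6:137738988-137739287, minus strand) was the most abundant member and LINC00942 (chr12:1500241-1500540, plus strand) was also abundant. LINC01182 (chr4:13654929-13655228, plus strand) differed between the 2 CPT1 guides. LINC01089 (chr12:121802897-121803196, minus strand) lies head to head with a protein-coding gene, and LINC00511 (chr17:72640423-72640722, minus strand) has a CG-rich start.
LINC02539: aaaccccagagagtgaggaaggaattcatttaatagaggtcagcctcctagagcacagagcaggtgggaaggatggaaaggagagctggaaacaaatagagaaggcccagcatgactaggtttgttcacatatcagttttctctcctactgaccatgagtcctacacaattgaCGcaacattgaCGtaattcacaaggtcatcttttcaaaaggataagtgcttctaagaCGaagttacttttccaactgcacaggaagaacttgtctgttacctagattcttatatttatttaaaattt
LINC01182: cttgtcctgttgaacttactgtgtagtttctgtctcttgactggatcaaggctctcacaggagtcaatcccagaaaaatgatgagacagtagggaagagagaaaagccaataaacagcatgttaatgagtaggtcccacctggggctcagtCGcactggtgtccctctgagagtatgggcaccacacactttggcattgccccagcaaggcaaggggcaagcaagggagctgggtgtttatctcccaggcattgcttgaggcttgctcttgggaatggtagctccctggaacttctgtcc
LINC00942: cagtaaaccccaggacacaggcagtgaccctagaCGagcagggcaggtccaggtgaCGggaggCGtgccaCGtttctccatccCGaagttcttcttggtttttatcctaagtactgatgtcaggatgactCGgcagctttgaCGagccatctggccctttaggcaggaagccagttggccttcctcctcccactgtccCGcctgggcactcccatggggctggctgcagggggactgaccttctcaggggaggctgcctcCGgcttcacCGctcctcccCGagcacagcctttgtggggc
LINC01089: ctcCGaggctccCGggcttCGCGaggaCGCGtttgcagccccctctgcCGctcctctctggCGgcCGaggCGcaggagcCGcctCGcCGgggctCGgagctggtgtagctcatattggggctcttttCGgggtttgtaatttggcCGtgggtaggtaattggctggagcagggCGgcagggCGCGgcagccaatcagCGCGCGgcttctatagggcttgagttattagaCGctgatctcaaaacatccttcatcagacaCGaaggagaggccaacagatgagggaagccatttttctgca
LINC00511: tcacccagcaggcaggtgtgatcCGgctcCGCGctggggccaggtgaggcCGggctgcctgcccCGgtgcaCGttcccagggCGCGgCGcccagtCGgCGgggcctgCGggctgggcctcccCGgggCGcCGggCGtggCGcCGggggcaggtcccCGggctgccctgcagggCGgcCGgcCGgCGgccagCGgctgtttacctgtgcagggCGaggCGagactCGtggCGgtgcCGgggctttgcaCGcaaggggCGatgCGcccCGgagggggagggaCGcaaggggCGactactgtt

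The window of LINC01182 held 1 CG in 300 bases and that of LINC02539 held 3. By contrast, LINC00942 held 11, LINC01089 held 24 and LINC00511 held 35. The observed number of CG over the number that base composition predicts was 0.0516 for LINC01182, 0.247 for LINC02539, 0.391 for LINC00942, 0.786 for LINC00511 and 0.869 for LINC01089. The RefSeq start of LINC02539 lies 53798 bp from the GENCODE 29 start of the same gene, and that of LINC01089 lies 960 bp away. For LINC01182 and LINC00511 both annotations gave the same start, and for LINC00942 they were 34 bp apart. Of 49 members with a start in both annotations, 24 agreed within 100 bp and 15 differed by over 1000 bp, so a window is the annotated start and not a measured one.

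A single gene, LINC02539, dominated the summed LINC expression. Its level was 145 and 153 FPKM in sgNTG, 156 and 161 in sg1, and 149 and 149.8 in sg2. The groups lay within a narrow band, and sg1 differed from sgNTG by 0.09 on the log2(FPKM + 1) scale, which did not pass the test (limma, adjusted p = 0.522). LINC02539 is a lincRNA of 3 exons and 737 nt in GENCODE 29, spread over chr6:137730170-137792835 on the minus strand, and it exceeded 97.5% of tested genes. Its nearest protein-coding start is that of TNFAIP3, which encodes the NF-kB inhibitor A20, at 74353 bp. In the 6 libraries LINC02539 made up 29.6% to 32.4% of the members' summed FPKM.

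The next most abundant members were also made in every library. LINC02742 (chr11:28702615-29063821, plus strand) had 39.6 and 40.1 FPKM in sgNTG, 33.4 and 38.7 in sg1, and 37.9 and 39.4 in sg2. LINC00942 (chr12:1500525-1504424, plus strand), whose nearest protein-coding start belongs to the signalling ligand gene WNT5B, had 31.5 and 32.2 FPKM in sgNTG, 32.8 and 32.2 in sg1, and 28.8 and 30.3 in sg2. LINC02742 lay lower in 1 sg1 library, and LINC00942 lay lower in both sg2 libraries than in the other 4. LINC03061 (chr13:109269634-109278512, plus strand) followed at 18.03 to 20.4 FPKM and LINC01537 (chr11:72570660-72573229, plus strand) at 12.8 to 13.6 FPKM. The first 3 genes together made up 44.8% of the summed mean level of all 73.

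Among the 12 most abundant were also LINC00997, LINC00189 and LINC02864. LINC00997 (chr7:32760279-32762924, plus strand) had 9.68 and 10.5 FPKM in sgNTG, 9.40 and 10.2 in sg1, and 11.02 and 10.7 in sg2. LINC00189 (chr21:29193480-29288205, plus strand), which starts 591 bp from the start of the haem-responsive repressor gene BACH1 on the same strand, had 8.78 and 10.7 FPKM in sgNTG, 9.20 and 9.99 in sg1, and 9.79 and 11.1 in sg2. LINC02864 (chr18:73151241-73264480, minus strand) had 9.16 and 8.497 FPKM in sgNTG, 8.99 and 9.80 in sg1, and 8.698 and 8.79 in sg2. For LINC00997 both sg2 libraries were above all others, and for LINC00189 the 3 groups overlapped. For LINC02864 both sg1 libraries were above both sg2 libraries, and sgNTG overlapped sg1 and sg2. The remaining 4 of the 12, LINC01182, LINC01089, LINC02210 and LINC00707, are given with the comparisons.

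Below these, levels fell off quickly. A mean of at least 10 FPKM was reached by 8 members, 14 lay between 5 and 10, 19 between 2 and 5, and 32 between 1 and 2. The median member had 2.37 FPKM, beside 6.21 FPKM over all tested genes and 7.88 FPKM over the tested protein-coding genes. These levels chose the members and are given as a description. At the edge of the rule, LINC00663 (1.06 FPKM), LINC01474 (1.06 FPKM) and LINC00526 (1.02 FPKM) lay just inside, and LINC01970 (0.925 FPKM), LINC00322 (0.876 FPKM) and LINC02398 (0.860 FPKM) just outside. No member was listed at 0 in any library, and 1 to 4 members per library had a value under 1 FPKM.

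**Figure D1:**
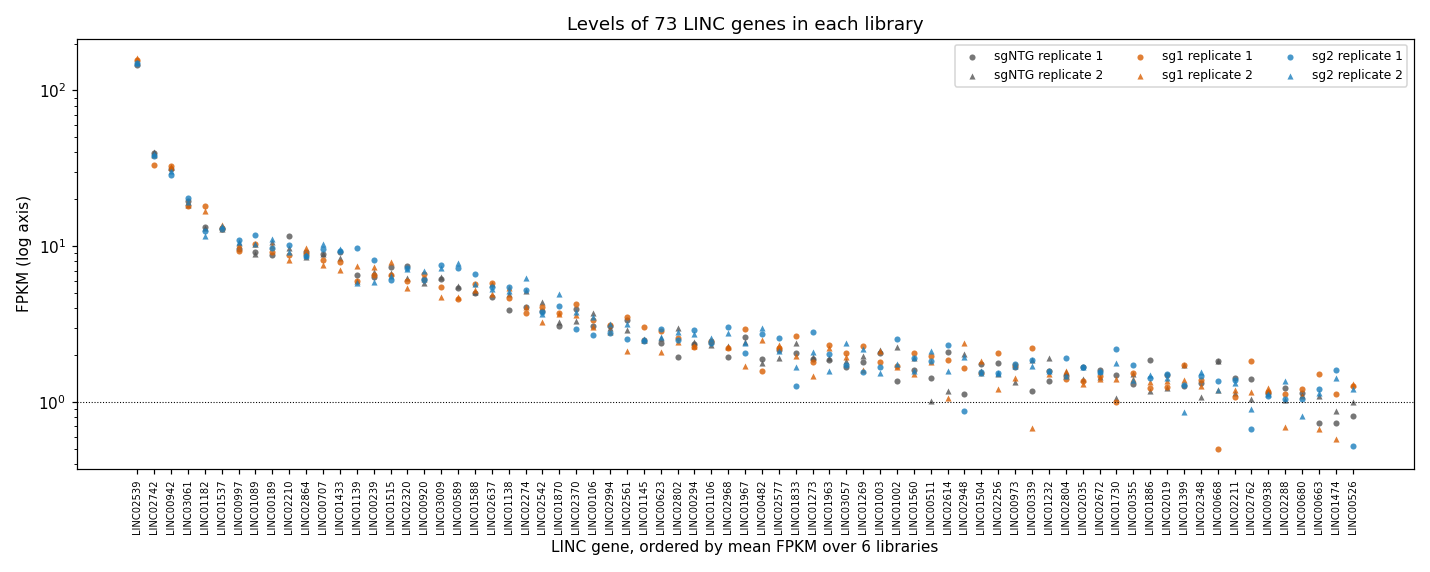
FPKM on a log axis of each of the 73 LINC genes, ordered by mean, with 1 point per library coloured by guide; the dotted line marks 1 FPKM. LINC02539 stands at 145 to 161 FPKM, above every other member, and 32 of the 73 genes have means between 1 and 2 FPKM.

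Summed over the members, LINC expression was 483 and 493 FPKM in sgNTG, 494.7 and 495.2 in sg1, and 504 and 502 in sg2. The sum was thus highest in the sg2 libraries, and the groups did not overlap in this sum. As a share of all FPKM in the library, it was 0.189% and 0.194% in sgNTG and 0.191% and 0.190% in sg1, which overlapped. In sg2 this share was 0.199% and 0.1996%. Without LINC02539 the sum was 338 and 339.999 FPKM in sgNTG, 339 and 335 in sg1, and 355 and 353 in sg2. The sgNTG and sg1 libraries then overlapped, and both sg2 libraries stayed above them.

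By annotation the members were a mixed class. GENCODE 29 listed 71 of them, 14 under another name, as 57 lincRNAs, 8 processed transcripts, 1 antisense and 1 sense overlapping gene, and 4 transcribed pseudogenes. LINC03009 and LINC02348 were not in that annotation and were placed by RefSeq. Of the 71, 57 had several exons and 14 had 1 exon in their longest transcript, whose length had a median of 1875 nt and ran from 370 to 9730 nt. Most members, 64 of 73, lay between protein-coding genes, and these had a median distance of 67079 bp to the nearest protein-coding start. Some of them overlap genes of other types, as LINC00997 does with the pseudogene DPY19L1P1.

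The other 9 members lay beside or across a gene annotated as protein-coding, which was not always listed. LINC01089 starts 274 bp from SETD1B, which encodes a histone H3 lysine methyltransferase, and LINC01560 starts 625 bp from the zinc finger gene ZNF41, each head to head on the opposite strand. LINC03009, LINC00294 and LINC01232 lie antisense across POMZP3, CSTF3 and TM9SF2. LINC00189, LINC02210, LINC01138 and LINC00339 overlap another gene on the same strand, of which LINC02210, formerly CRHR1-IT1, shares transcripts with the corticotropin-releasing hormone receptor gene CRHR1. At least 9 members shared exon bases with another listed gene of at least 1 FPKM. Among these, LINC00339 overlaps CDC42-AS1 and LINC00997 overlaps the pseudogene DPY19L1P1, both on opposite strands. The strand setting of the counting is not given in the sources used here, so reads of such overlapping genes cannot be told apart. Genes that were not listed could not enter this count. LINC03009 and LINC02348, placed by RefSeq, had no exon positions here and were not checked for shared bases. LINC03009 lies across POMZP3 (mean 4.81 FPKM), so its reads may also be mixed with those of that gene.

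The members were spread over 23 chromosomes, with 7 on chromosome 1 and 6 on chromosome 14. LINC00623, LINC01145, LINC02802, LINC02804 and LINC01138 lie in the duplicated pericentromeric part of chromosome 1, where reads can be split among near-identical copies, and their levels are uncertain. LINC00106 and LINC02968 lie in the pseudoautosomal region, and each had 2 identical rows that were counted as 1 gene. The pair LINC00239 and LINC02320 on chromosome 14 overlap by 672 bp on opposite strands. LINC00239 had 6.39 and 6.89 FPKM in sgNTG, 6.51 and 7.40 in sg1, and 8.15 and 5.95 in sg2. LINC02320 had 7.43 and 6.23 FPKM in sgNTG, 5.96 and 5.38 in sg1, and 7.22 and 7.17 in sg2. For LINC00239 the sg2 libraries lay on both sides of all others, whereas for LINC02320 both sg1 libraries were the lowest.

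RefSeq gave a 300-base start window for 51 of the 73 members. Most of these windows were poor in CG, with a median observed over expected ratio of 0.306, while the tested protein-coding genes had 0.847 over 5512 windows and the LINC genes under 1 FPKM had 0.239 over 908. A ratio of at least 0.6 was found in 15 of the 51 members (29.4%), in 13.9% of the LINC windows under 1 FPKM, in 85.1% of the protein-coding windows and in 49.0% of all 27305 windows. The median GC content was 51% in the members and 66.0% in the tested protein-coding genes. The letters TATAAA, searched on both strands (TTTATA on the other), were found in 5 of the 51 members (9.80%), in 17.8% of the LINC windows under 1 FPKM, in 5.64% of the protein-coding windows and in 11.95% of all windows. These matches describe the annotated windows and do not show where transcription began.

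Most members with a CG-rich window had low levels, although LINC01089 was among the 12 most abundant. Some abundant members, such as LINC03061, had no window. The 15 members with a ratio of at least 0.6 had a median of 1.90 FPKM and a range of 1.02 to 10.2 FPKM, and 2 of them, LINC01089 and LINC03009, had at least 5 FPKM. The 36 members under that ratio had a median of 2.76 FPKM and a range of 1.09 to 152 FPKM, and 14 of them had at least 5 FPKM. Levels chose the members, so this is a description without a test.

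**Figure D2:**
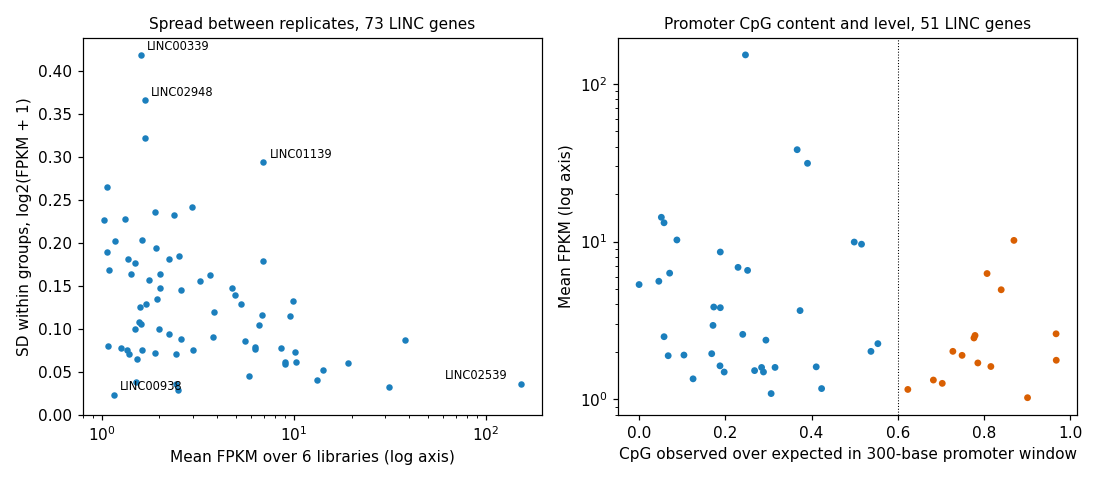
Left, SD between libraries within groups on the log2(FPKM + 1) scale against mean FPKM on a log axis for the 73 LINC genes. Right, mean FPKM on a log axis against observed over expected CG in the start window for the 51 genes with a RefSeq window; the dotted line and the orange points mark a ratio of 0.6 or more, where 2 of 15 genes reach 5 FPKM, while 14 of 36 do so below it.

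Replicate libraries of a group set how small a change could be seen. The SD within groups had a median of 0.115 on the log2(FPKM + 1) scale for the members, 0.0834 for all tested genes and 0.0740 for protein-coding genes. The gap varied with level. At 1 to 2 FPKM the median SD was 0.146 for members and 0.138 for all genes, and at 10 FPKM or more it was 0.0562 and 0.0569. Between 2 and 5 FPKM the members stood further apart from all genes, at 0.145 and 0.105.

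Individual members ranged from very steady to loose. LINC00938 was the steadiest, with 1.14 and 1.17 FPKM in sgNTG, 1.16 and 1.23 in sg1, and 1.09 and 1.13 in sg2. LINC01537 and LINC01106 were next, with an SD over the 6 libraries of 0.0350 and 0.0360. LINC00339, a transcript of the CDC42 locus, was the loosest, with 1.18 and 1.87 FPKM in sgNTG, 2.24 and 0.687 in sg1, and 1.87 and 1.71 in sg2. Its highest and lowest values were both sg1 libraries. LINC02948 (1.14 and 2.03 FPKM in sgNTG, 1.66 and 2.39 in sg1, 0.881 and 1.96 in sg2) had an SD over the 6 libraries of 0.325, after LINC00339 (0.345) and LINC00668 (0.340), and its replicates lay far apart in every group. LINC01139, known as LINK-A and described in hypoxia signalling of breast cancer cells, had 6.55 and 5.95 FPKM in sgNTG, 6.03 and 7.54 in sg1, and 9.79 and 5.86 in sg2. One sg2 library of LINC01139 was the highest and the other the lowest of the 6. Over the 73 members the highest library exceeded the lowest by a median factor of 1.41, and in 12 members by a factor of at least 2.

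Against the nontargeting guide, no LINC gene passed the test. With both guides together, 0 of 73 members passed an adjusted p of 0.05, and 1 of the 8887 genes tested did (0.0113%). With sg1 alone, 0 members and 1 gene passed (0.0113%), and with sg2 alone, 0 members and 2 genes passed (0.0225%; limma for all 3 comparisons). At an unadjusted p under 0.05, 6 members were found with both guides (8.22%), beside 6.3% of all tested genes. Of these, 4 were higher (5.48%, beside 3.74% of genes) and 2 lower (2.74%, beside 2.57%). With sg1, 9 members met this threshold (12.3%, beside 9.92% of genes), 3 of them higher (4.11%, beside 5.87%) and 6 lower (8.22%, beside 4.05%). With sg2, 12 members met it (16.4%, beside 9.61% of genes), 10 of them higher (13.7%, beside 4.94%) and 2 lower (2.74%, beside 4.67%). The libraries of the groups compared did not overlap in 4 members that were higher with both guides (5.48%, beside 7.06% of genes) and 2 that were lower (2.74%, beside 5.21%). With sg1 this held for 12 higher (16.4%, beside 22.2%) and 11 lower members (15.1%, beside 18.9%), and with sg2 for 21 higher (28.8%, beside 22.3%) and 13 lower (17.8%, beside 18.7%). A difference above 0 was seen in 44 members with both guides (60.3%, beside 52.9% of genes), 39 with sg1 (53.4%, beside 52.4%) and 45 with sg2 (61.6%, beside 52.4%). The median difference of the members was 0.03 with both guides, 0.02 with sg1 and 0.06 with sg2 on the log2 scale. It was 0.03, 0.01 and 0.05 for the other tested long noncoding RNAs and 0.01 in each comparison for all tested genes. The 3 comparisons share the sgNTG libraries and are therefore not independent of each other.

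**Figure D3:**
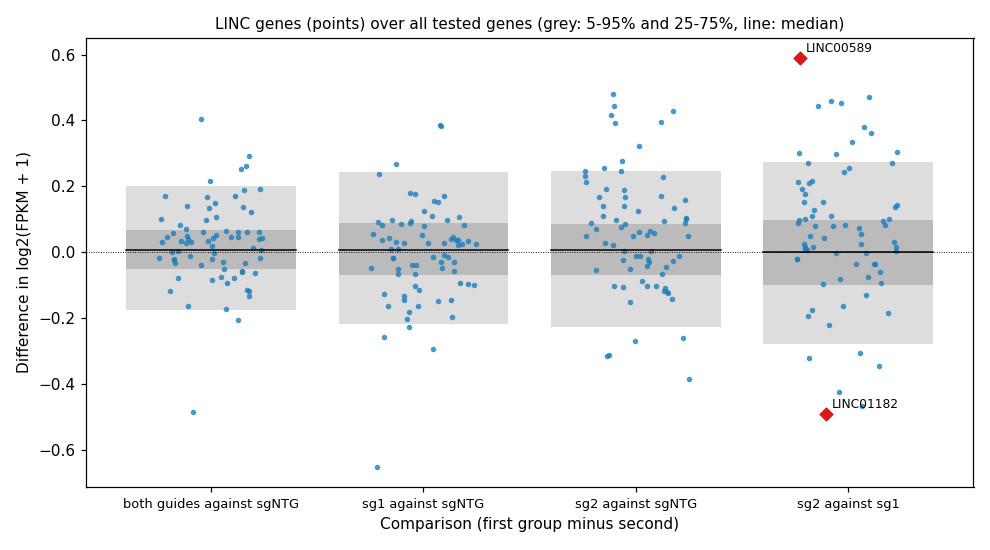
Difference in log2(FPKM + 1) of the 73 LINC genes (points) in each of 4 comparisons, over the spread of all 8887 tested genes (grey bands, 5 to 95% and 25 to 75%; line, median). Red diamonds mark the 2 genes past an adjusted p of 0.05, LINC00589 at 0.59 and LINC01182 at -0.49, both in sg2 against sg1.

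LINC01870, LINC00511 and LINC01089 had the lowest p-values on the higher side with both guides. LINC01870 (chr2:101479390-101486822, plus strand) had 3.07 and 3.26 FPKM in sgNTG, 3.72 and 3.66 in sg1, and 4.16 and 4.97 in sg2. All 4 libraries with a CPT1 guide were above both sgNTG libraries, and the difference was 0.29 with an SE of 0.0821 (limma, adjusted p = 0.656). The next protein-coding start is that of RFX8, a gene of the RFX transcription factor family, at 4687 bp. RFX8 had 13.5 and 14.8 FPKM in sgNTG, 12.1 and 12.997 in sg1, and 15.8 and 15.9 in sg2.

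LINC00511, described in several carcinomas as a growth-promoting RNA that binds the Polycomb methyltransferase EZH2, had 1.44 and 1.01 FPKM in sgNTG, 1.97 and 1.81 in sg1, and 1.85 and 2.12 in sg2. The groups with a CPT1 guide did not overlap sgNTG, and the difference was 0.41 with an SE of 0.114 (limma, adjusted p = 0.656). LINC01089, also known as LIMT and described in mammary cells as a brake on migration that epidermal growth factor lowers, had 9.19 and 8.94 FPKM in sgNTG, 10.4 and 10.4 in sg1, and 11.8 and 10.3 in sg2. Here too the 4 libraries were above both sgNTG libraries, by 0.22 with an SE of 0.0634 (limma, adjusted p = 0.675). Its head-to-head partner SETD1B had 4.10 and 3.22 FPKM in sgNTG, 3.15 and 3.17 in sg1, and 3.71 and 3.36 in sg2. The SETD1B libraries of sg1 lay just below both sgNTG libraries, and those of sg2 lay between the sgNTG libraries.

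On the lower side, LINC00668 (chr18:6919496-6929966, minus strand) had 1.84 and 1.85 FPKM in sgNTG, 0.498 and 1.19 in sg1, and 1.37 and 1.21 in sg2. Both sgNTG libraries were above the other 4, the sg1 libraries were far apart, and the difference was -0.48 with an SE of 0.164 (limma, adjusted p = 0.760). LINC02210 had 11.6 and 9.69 FPKM in sgNTG, 8.74 and 8.21 in sg1, and 10.2 and 9.26 in sg2. The sg1 libraries were the lowest and the sg2 libraries overlapped sgNTG (both guides, -0.21; limma, adjusted p = 0.768). LINC01003 had 2.08 and 2.15 FPKM in sgNTG, 1.82 and 2.14 in sg1, and 1.67 and 1.53 in sg2, with only the sg2 libraries below all others, and neither sg2 (-0.26; limma, adjusted p = 0.507) nor both guides (-0.16; limma, adjusted p = 0.818) passed.

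**Figure D4:**
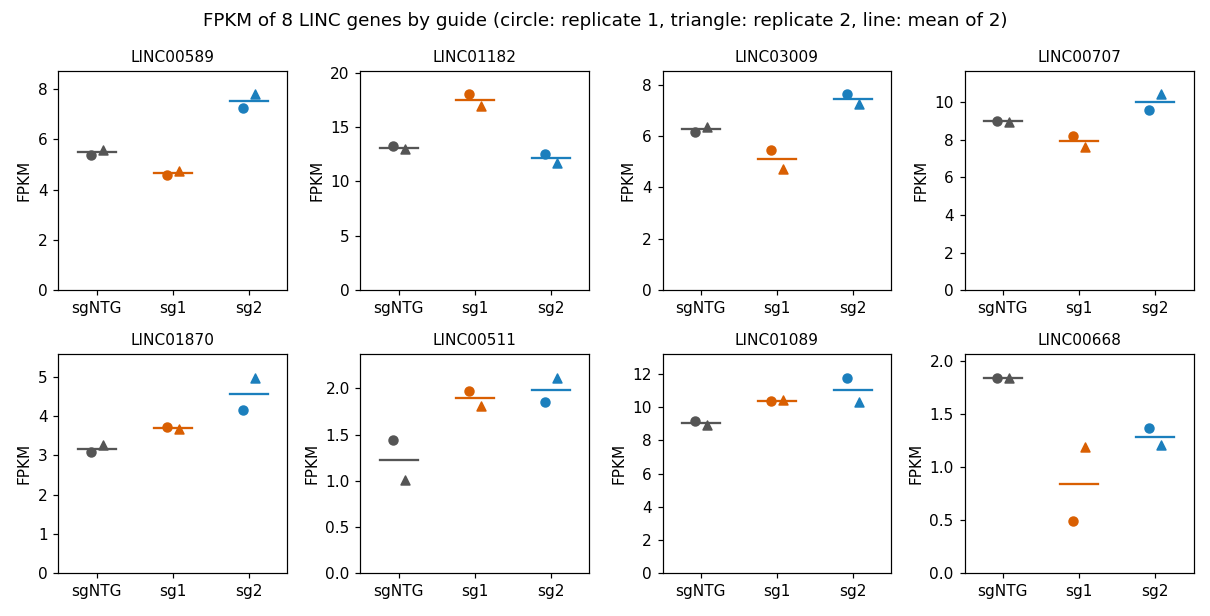
FPKM of 8 LINC genes in each library by guide, with circles for replicate 1, triangles for replicate 2 and a line at the mean of 2; each panel starts at 0. LINC00589 is highest in the sg2 libraries (7.23 and 7.79 FPKM) and lowest in sg1 (4.58 and 4.73 FPKM), while LINC01182 is highest in sg1 (18.02 and 16.9 FPKM).

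LINC00589 and LINC01182 differed between sg1 and sg2, the guides labelled as directed at CPT1; the labels do not say at which CPT1 gene. In sg2 against sg1, 2 of 73 members passed an adjusted p of 0.05 (2.74%), and 115 of the 8887 tested genes did (1.29%). One member was higher in sg2, beside 0.518% of tested genes, and 1 was lower, beside 0.776%. At an unadjusted p under 0.05, 16 members differed (21.9%, beside 17% of genes), 12 of them higher (16.4%, beside 7.93%) and 4 lower (5.48%, beside 9.1%). The sg2 and sg1 libraries did not overlap in 25 members that were higher in sg2 (34.2%) and 13 that were lower (17.8%), beside 24.4% and 24.2% of all tested genes. The median difference was 0.07 for members, 0.04 for the other tested long noncoding RNAs and 0.00 for protein-coding genes, and 49 of 73 members (67.1%) had a difference above 0, beside 50.4% of tested genes. The members were chosen with results known, so no test is given for these shares. The epithelial keratin KRT19 also differed between the guides, at 169 to 179 FPKM in sg1 and 140.5 to 143 FPKM in sg2 (-0.30; limma, adjusted p = 0.0338), and its part in the members' differences was not tested.

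LINC00589 was the member that rose in sg2 relative to sg1. This RNA, also known as TSLNC8 and described in liver cancer as a tumour suppressor, is annotated with 4 exons and 1404 nt at chr8:29673922-29748109 on the minus strand. It had 5.38 and 5.57 FPKM in sgNTG, 4.58 and 4.73 in sg1, and 7.23 and 7.79 in sg2. The 3 groups were fully separate, with sg1 below and sg2 above the control. The difference of sg2 and sg1 was 0.59 with an SE of 0.0696, a fold of 1.504 on the FPKM + 1 scale (limma, adjusted p = 0.0329). Against sgNTG, neither the difference of 0.39 in sg2 (adjusted p = 0.229) nor that of -0.20 in sg1 (adjusted p = 0.437) passed in limma.

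LINC01182 was the member that fell in sg2 relative to sg1. It is a lincRNA of 4 exons and 2228 nt at chr4:13655179-13977075 on the plus strand, and its start, printed above with a single CG, is 27456 bp from that of BOD1L1, a gene that protects stalled replication forks. It had 13.2 and 13.03 FPKM in sgNTG, 18.02 and 16.9 in sg1, and 12.6 and 11.7 in sg2. The sg1 libraries stood above all others and the sg2 libraries lay just under sgNTG. The difference of sg2 and sg1 was -0.49 with an SE of 0.0604 (limma, adjusted p = 0.0338), while sg1 exceeded sgNTG by 0.39 without passing (limma, adjusted p = 0.147) and sg2 differed from sgNTG by -0.10 (limma, adjusted p = 0.635). BOD1L1 had 13.1 and 14.1 FPKM in sgNTG, 12.3 and 13.04 in sg1, and 14.02 and 14.1 in sg2, a difference of 0.14 between the guides (limma, adjusted p = 0.322).

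Neither call held when any 1 of the 6 libraries was left out. The difference of LINC00589 then ran from 0.54 to 0.64 (adjusted p from 0.0700 to 0.169) and that of LINC01182 from -0.54 to -0.45 (adjusted p from 0.0711 to 0.169; limma for both). Both calls were also lost when only the sg1 and sg2 libraries were fitted.

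Other members had separate sg1 and sg2 libraries without passing. LINC03009, which has the CG-rich start and lies across POMZP3, had 6.17 and 6.37 FPKM in sgNTG, 5.46 and 4.73 in sg1, and 7.63 and 7.25 in sg2. The groups did not overlap, and the difference of the guides was 0.47 with an SE of 0.0808 (limma, adjusted p = 0.0567). Whether LINC03009 shares exon bases with POMZP3 was not checked. LINC00707 had 8.995 and 8.95 FPKM in sgNTG, 8.22 and 7.61 in sg1, and 9.60 and 10.4 in sg2. Its order of groups was that of LINC00589, with a difference of 0.30 and an SE of 0.0685 (limma, adjusted p = 0.103). LINC01433 had 9.14 and 8.41 FPKM in sgNTG, 7.96 and 7.05 in sg1, and 9.37 and 9.57 in sg2. It too was lowest in sg1 and highest in sg2 (0.30; limma, adjusted p = 0.136).

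LINC02274 (chr14:73822559-73830135, minus strand) had 4.06 and 5.14 FPKM in sgNTG, 3.75 and 4.08 in sg1, and 5.29 and 6.25 in sg2. Its sg2 libraries were above all others, with a difference of 0.46 to sg1 (limma, adjusted p = 0.140). LINC02968 had 1.96 and 2.29 FPKM in sgNTG, 2.23 and 2.25 in sg1, and 3.02 and 2.798 in sg2, again with both sg2 libraries above the other 4 (0.27; limma, adjusted p = 0.241). LINC00294, which shares exon bases with a pseudogene on the opposite strand, had 2.35 and 2.43 FPKM in sgNTG, 2.27 and 2.296 in sg1, and 2.895 and 2.73 in sg2, and its difference was 0.21 (limma, adjusted p = 0.279). LINC01474, at the edge of the rule, had 0.734 and 0.878 FPKM in sgNTG, 1.14 and 0.581 in sg1, and 1.62 and 1.42 in sg2. It reached the minimum of 1 FPKM through its sg2 libraries, and its difference of 0.45 (limma, adjusted p = 0.262) rests in part on the values that chose it.

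In 13 members both sg2 libraries lay below both sg1 libraries. Of these, LINC01833 and LINC00942 had the lowest p in limma after LINC01182, and not all of the others are described here. LINC01833, whose start lies 2699 bp from that of the homeobox gene SIX3, had 2.08 and 2.38 FPKM in sgNTG, 2.68 and 1.99 in sg1, and 1.28 and 1.68 in sg2. Only the sg2 libraries stood apart, below the other 4 (-0.43; limma, adjusted p = 0.223). For LINC00942, whose values are given above, the difference was -0.13 (limma, adjusted p = 0.233).

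The nearest or overlapping protein-coding gene was listed for 47 members and was itself tested for 30, which had 29 distinct neighbours. The starts of these pairs lay from 274 to 646696 bp apart, so many neighbours were distant. Its difference had the sign of the member's in 12 of 30 pairs with both guides, 10 with sg1, 14 with sg2 and 13 in sg2 against sg1. Of these neighbours, 2 of 29 passed in sg2 against sg1, beside 1.29% of all tested genes. DCBLD2, whose start lies 79369 bp from that of LINC00973, was higher in sg2 by 0.27 (limma, adjusted p = 0.0350). SLC25A6, which encodes a mitochondrial ADP/ATP carrier and starts 3703 bp from LINC00106, was lower (-0.27; limma, adjusted p = 0.0380). The members LINC00973 (1.34 to 1.76 FPKM) and LINC00106 (2.70 to 3.74 FPKM) did not pass. The gene nearest LINC00589, the calcium entry regulator gene SARAF at 335099 bp, differed by -0.06 (limma, adjusted p = 0.433).

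Of a list of 40 LINC genes with a studied role in lung or other carcinomas, 14 were listed in the table, 3 of these at 0 throughout, and 5 were members. These were LINC01089, LINC01138, LINC01833, LINC00511 and LINC00668, and 0 of 5 passed in any of the 4 comparisons. At an unadjusted p under 0.05, LINC01089 and LINC00511 were higher with both guides and with each guide alone, LINC00668 was lower with both guides and with sg1, and LINC01833 was lower in sg2 than in sgNTG and in sg1. These are 3 of 5 with both guides (beside 6.3% of all tested genes), 3 with sg1 (9.92%), 3 with sg2 (9.61%) and 1 in sg2 against sg1 (17%). The list was chosen with earlier results of these data known, and the comparisons share libraries and genes. No test is given for these shares, and they do not show that the list differs from other genes. LINC01138, studied in liver carcinoma, had 3.91 and 4.98 FPKM in sgNTG, 4.67 and 5.41 in sg1, and 5.51 and 5.198 in sg2, with overlap between sgNTG and sg1 (both guides, 0.19; limma, adjusted p = 0.811). Long noncoding RNAs with names outside the LINC numbering served as a comparison. Of 50 fixed names, 15 were listed and 10 were tested, so names not listed, MALAT1 and TUG1 among them, could not be compared. ZFAS1, the host of small nucleolar RNAs, was lower in sg2 than in sg1 by 0.31 with an SE of 0.0480 (limma, adjusted p = 0.0479). ZFAS1 had 109 and 112 FPKM in sgNTG, 120.9 and 118 in sg1, and 92.3 and 100.6 in sg2. NEAT1, the paraspeckle RNA, had a mean of 129.5 FPKM, above ZFAS1 (109 FPKM), NORAD (89.4 FPKM), GAS5 (68.6 FPKM) and SNHG7 (32.4 FPKM), so LINC02539, at a mean of 152 FPKM, exceeded the mean of every tested gene of that list. A further list held 22 names, LINC and current ones side by side, of loci once annotated as noncoding and since described with small proteins, and 4 of these names were tested. They were MTLN, SMIM26, NBDY and SMIM30, with means of 7.15 to 31.2 FPKM, none of them a member, and none passed in limma in the 4 comparisons.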

How the data were processed

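Cells were lysed in TRIzol and mRNA was captured on beads before library construction, per the labels' protocols. Expression was deposited by the authors as FPKM, in 1 table whose 6 column names each matched 1 sample. STAR, StringTie and hg38 were named, per the submitters' processing notes. Tool versions, the annotation, any filters and whether strand was used in counting: not given in the sources used here. Rows repeated with identical values were kept as 1.

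The members and gene lists were chosen with earlier results of these data known. Genes at a mean FPKM of 1 or more were tested as log2(FPKM + 1), which understates changes of low genes. The model, limma 3.58.1 run in R 4.3.3 with a variance trend, had 1 mean for each group, used every library, and had no block and no rescaling. Tests were two-sided, with Benjamini-Hochberg adjustment over 8887 genes in each comparison and a threshold of 0.05. The fit was tested on simulated data. Named members are those past the threshold, the 12 most abundant, the 3 of lowest p in each direction per comparison, the 3 on each side of the minimum, the 3 of highest and of lowest spread, and those on the lists; others were named after their values were seen. Positions came from GENCODE 29 (hg38) and start windows from RefSeq (GRCh38.p14), matched by symbol for 51 members.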

Additional observations from a re-analysis of the deposited data

Results flagged for a closer look

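For 2 LINC genes the effects of the 2 CPT1 guides against the shared control differed from each other, by the direct comparison of sg2 with sg1 in limma. The effect of sg2 on LINC00589 exceeded that of sg1 by 0.59 on the log2(FPKM + 1) scale (adjusted p = 0.0329), with sg2 above and sg1 below the control. For LINC01182 the effect of sg2 minus that of sg1 was -0.49 (adjusted p = 0.0338), with sg1 above and sg2 just below the control.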

How the results depend on the processing

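The count of 2 members past the threshold in sg2 against sg1 stood with a pseudocount of 0.1 or 0.5, a filter of 0.5 FPKM, robust limma, median-of-ratios scaling and quantile normalization, and was 3 with a filter of 5 FPKM, where LINC03009 also passed. It was 0 with no filter on low values, with no variance trend, with the replicate block and with only the libraries compared, and 0 to 0 when each library was left out. Over all genes that count of 115 became 0, 0, 5 and 26 under the first 4 of these and 4 to 26 with a library left out. The cause was not tested. The replicate numbers did not pair the libraries (correlations of deviations 0.0343, -0.0276 and 0.0603), and with the block no member passed in any comparison. Against sgNTG the members past the threshold stayed at 0 in every alternative. Of 398 alternative values of the 24 named differences, 377 kept direction and side of the threshold, 20 lost it, 1 gained it and 0 reversed. Of these differences only those of LINC00589 and LINC01182 between the guides had passed, so the others had no call to lose. The named differences were those of lowest p. Over all 73 members, 53 to 66 kept the direction of their difference with both guides when a library was left out. A minimum of 0.5 FPKM would give 113 members in place of 73, and a distance of 5 kb would give 6 head-to-head members in place of 2. Without counts, the precision of members near 1 FPKM is unknown.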
